A study of Mus musculus with 23 samples.

Results

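The 35 interferon-stimulated genes described here were taken from a list of 41 such genes and measured in the ear pinna of mice at and after an ear punch. Each gene was represented by the array row annotated to its symbol alone, or by the row with the highest mean where it had more than 1, among 19938 genes tested. Isg15, Gbp2, Gbp6, Igtp and Irgm2 occurred only on rows that carry several symbols and are not analysed here, and Ifi44 was matched to no row and is not analysed here either. Of the 35 genes, Irf1 was the only gene with a second row, and Mx2 and Cxcl11 had their highest group means at 4.74 and 5.14, under the level of 6 that an alternative filter required.

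The mutant tissue came from Rhbdf2cub/cub mice of the strain B6.Cg-Rhbdf2cub/J, called cub here for the spontaneous curly bare mutation, and the comparison tissue from Rhbdf2+/+ C57BL/6J mice, called wild type. All mice were female and 4 weeks old. Rhbdf2 encodes iRhom2, an inactive rhomboid protein needed for the maturation of the sheddase ADAM17. A hole of 2 mm was punched through the ear, and the tissue beside it was taken with a 3 mm biopsy punch after 15 min, 2 h or 24 h; the 0 h ears carry the treatment label control, and how the piece was taken from them is not given separately. Each of the 8 groups held 3 arrays, called biological replicates, except cub at 15 min, which held 2. The study compared the genotypes at each of these times.

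Values are log2 RMA values of Affymetrix Mouse Gene 1.0 ST arrays, a scale on which a difference of 1 is a 2-fold change. Array medians lay between 6.37 and 6.46, and arrays of the same group correlated at 0.996 to 0.998 across genes. Precision depends on how many arrays a group holds and on the spread between arrays of the same group, estimated together over all 8 groups. A p value sets a difference against that spread. Krt14 and Krt5, keratins of basal keratinocytes, stood at 12.63 to 12.94 and 12.86 to 13.01 in all arrays. Rhbdf2 itself ranged over 8.2 to 9.2 in the 11 cub arrays and 8.57 to 9.03 in the 12 wild-type arrays, which overlap; its probes were not placed against the mutated exons, so its level is no check of the genotypes.

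Interferons are secreted proteins that warn cells of infection or damage. Type I interferons signal through the receptor IFNAR and the kinases JAK1 and TYK2 to a complex that holds STAT2 and IRF9 and binds a DNA motif called the interferon-stimulated response element (ISRE). Interferon gamma signals through its own receptor, and its target genes, such as Irf1, often carry a motif called the gamma-activated sequence (GAS). The products of the target genes sense nucleic acids, block the growth of viruses, tag proteins with ISG15, attack the vacuoles of intracellular parasites, attract T cells, or dampen the response again.

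Promoters from the RefSeq annotation of the GRCm38.p6 build were found for 24 of the 35 genes, with 28 promoters in all. An ISRE, spelled GAAA, then NN, then GAAA, with N for any base, and searched on both strands, occurred in 12 of these 28 promoters (42.9%) between 250 bases before and 50 after the start, against 3.44% of all 32851 promoters of that length. A GAS, written TTCNNNGAA, occurred in 5 of them (17.9%), against 8.3% of all promoters; this motif reads the same on both strands and was counted once. Promoters of 2 genes, Bst2 and Eif2ak2, held both motifs, and matches of 1 motif could overlap each other. A match describes the letters only and is not evidence of a bound site. Neither motif was in this window in 9 genes, Cmpk2, Cxcl9, Dtx3l, Irf7, Irf9, Oasl1, Oasl2, Trim25 and Xaf1. Dhx58, Zbp1, Mx1, Mx2, Oas2, Usp18, Rtp4, Parp9, Parp14, Iigp1 and Cxcl11 had no promoter entry. The 250 bases before the start are given below for 5 genes, chosen after their values were seen: Irf1, which was higher 2 h after the punch in both genotypes, Irgm1, which was higher then in wild type, and Cxcl10, Ifit1 and Rsad2, with large changes at 24 h. Each reads 5′ to 3′ on the strand of its gene, and capitals mark the motif.
Irf1 (chr11:53769764-53770013, plus strand): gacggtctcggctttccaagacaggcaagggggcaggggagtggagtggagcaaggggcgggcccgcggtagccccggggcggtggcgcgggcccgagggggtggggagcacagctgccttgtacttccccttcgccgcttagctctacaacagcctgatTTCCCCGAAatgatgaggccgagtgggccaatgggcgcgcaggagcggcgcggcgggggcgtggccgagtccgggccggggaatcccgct
Irgm1 (chr11:48871421-48871670, minus strand): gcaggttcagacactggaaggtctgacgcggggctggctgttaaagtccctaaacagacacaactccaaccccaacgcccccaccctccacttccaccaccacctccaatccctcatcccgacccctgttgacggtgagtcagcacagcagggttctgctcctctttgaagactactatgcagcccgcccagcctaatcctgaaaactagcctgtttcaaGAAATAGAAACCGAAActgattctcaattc
Cxcl10 (chr5:92348890-92349139, minus strand): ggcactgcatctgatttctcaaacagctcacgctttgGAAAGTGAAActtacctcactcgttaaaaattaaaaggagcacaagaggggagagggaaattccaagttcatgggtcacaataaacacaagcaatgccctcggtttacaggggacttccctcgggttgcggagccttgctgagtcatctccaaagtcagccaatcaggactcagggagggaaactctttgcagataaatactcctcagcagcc
Ifit1 (chr19:34640639-34640888, plus strand): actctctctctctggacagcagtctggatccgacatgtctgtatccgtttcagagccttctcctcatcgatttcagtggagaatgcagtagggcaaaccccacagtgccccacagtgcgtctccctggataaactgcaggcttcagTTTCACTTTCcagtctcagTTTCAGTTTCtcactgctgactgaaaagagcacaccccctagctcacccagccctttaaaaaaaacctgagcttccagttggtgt
Rsad2 (chr12:26456453-26456702, minus strand): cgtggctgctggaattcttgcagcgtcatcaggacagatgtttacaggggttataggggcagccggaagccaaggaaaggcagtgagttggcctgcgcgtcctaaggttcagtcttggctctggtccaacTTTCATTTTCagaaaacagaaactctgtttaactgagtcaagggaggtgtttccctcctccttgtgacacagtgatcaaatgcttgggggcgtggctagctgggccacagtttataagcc
The Irf1 promoter held a GAS at 90 to 82 bases before the start and no ISRE, and the other promoters shown held ISREs and no GAS. Ifit1 had a pair of ISREs, at 104 to 95 and 85 to 76 bases before the start. The pair in Irgm1 overlapped, at 30 to 21 and 24 to 15 bases. The single ISRE lay at 213 to 204 bases in Cxcl10 and at 120 to 111 bases in Rsad2.

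Replicate 3 of wild type at 2 h stood apart from the other arrays in these genes, so results that move without it are given both ways. It was picked from the values of these same genes. Leaving it out therefore narrows the spread of the genes in which it is extreme, and calls gained without it are not separate evidence. It was above both other wild-type 2 h arrays in 31 of the 35 genes, against 29.4% of all genes, with a median gap to their mean of 0.33 (all genes: -0.01). The largest gap of any gene on the array was that of Iigp1, a GTPase that attacks parasite vacuoles, with 8.47 in replicate 3 and 6.12 and 6.33 in the other arrays. Next among these genes came Cxcl9, a T-cell chemokine, with 8.98 against 7.06 and 7.12. Iigp1, Cxcl9, Ifit1, Oasl2 and Gbp3 made up 5 of the 12 genes on the array with a gap over 1. Iigp1 and Cxcl9 are known targets of interferon gamma, and Ifng itself stood at 5.64 in this array and 5.52 and 5.63 in the others. Ifnk, a keratinocyte interferon, was at 4.97 against 4.45 and 4.5, and Ifnb1 at 4.86 against 4.82 and 4.98. These interferon values lay under the level of 6, where RNA may go undetected. Among cell markers, those above both other arrays were 0 of 10 for neutrophils, 1 of 9 for monocytes and macrophages, 3 of 11 for T and NK cells, 2 of 5 for plasmacytoid dendritic cells and 4 of 8 for dendritic and Langerhans cells. The genes listed for plasmacytoid dendritic cells need not follow those cells in this tissue, as described below. What sets this array apart was not tested.

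**Figure D1:**
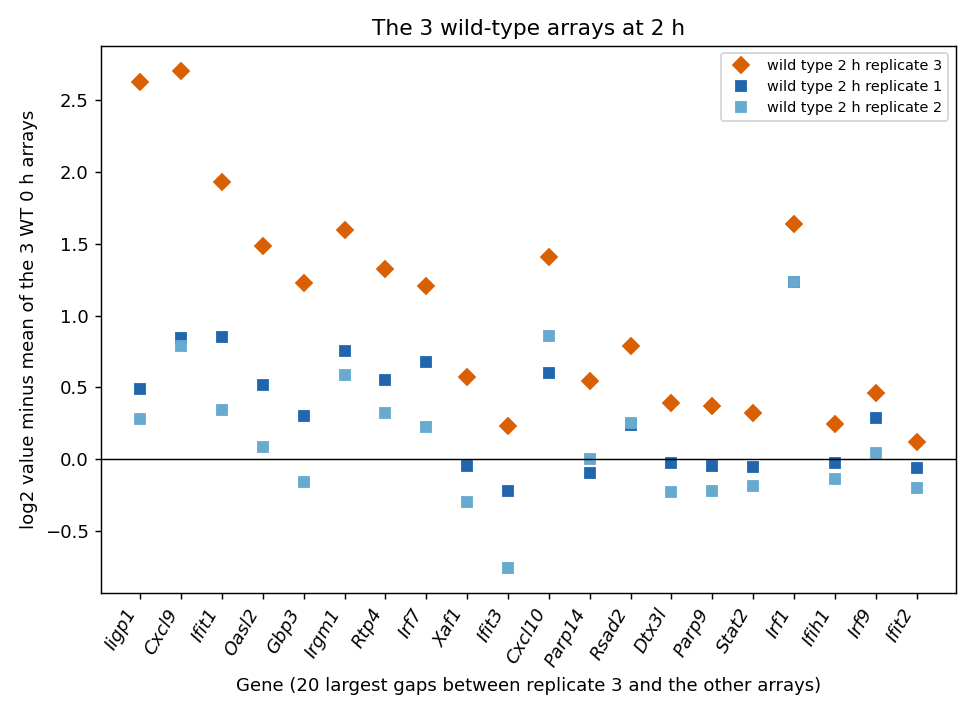
Log2 value of each of the 3 wild-type 2 h arrays minus the mean of the 3 wild-type 0 h arrays, for the 20 genes with the largest gap between replicate 3 and the other arrays. Diamonds mark replicate 3, which lies above both squares in every gene shown; its gap to their mean is 2.25 in Iigp1 and 1.89 in Cxcl9.

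At 24 h after the punch, most interferon-stimulated genes were higher than at 0 h in both genotypes. In cub ears 29 of the 35 genes rose and 0 fell, where 46.0% of all genes were called, 21.1% higher and 24.9% lower. In wild-type ears 32 rose and 0 fell, where 42.8% of all genes were called, 20.5% higher and 22.4% lower. The median difference was 0.75 in cub and 0.97 in wild type, against 0 and -0.02 over all genes. There were 29 genes called in both genotypes, and 3 called in neither. The difference reached 2-fold or more in 14 genes in cub and in 15 in wild type. The shares of all genes called in both genotypes, called in neither, or changed by 2-fold were not counted. The arrays measure whole tissue, so more cells of a type and more RNA per cell cannot be told apart. All calls use limma's moderated test, two-sided, with p values adjusted over the 19938 genes by the Benjamini-Hochberg method at a threshold of 0.05.

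Cxcl10, a chemokine that draws activated T cells through the receptor CXCR3, changed most in cub. Its 24 h values were 8.44, 8.12 and 9.06 in cub, against 5.49, 5.32 and 5.69 at 0 h, and the difference was 3.04 ± 0.22 (SE, adjusted p = 1.59e-10). In wild type it stood at 7.88, 8.52 and 7.71 at 24 h, against 5.49, 5.3 and 5.59 at 0 h, a difference of 2.58 ± 0.22 (adjusted p = 3.01e-09). The 24 h and 0 h arrays were far apart in both genotypes. The other CXCR3 ligands did not pass: Cxcl9 differed by 0.42 ± 0.31 in cub and 0.65 ± 0.31 in wild type, and Cxcl11 by 0.18 ± 0.08 and 0.03 ± 0.08 (adjusted p from 0.0696 to 0.838). For Cxcl9 this rested on replicate 3 of wild type at 2 h, which enters only through the shared estimate of the spread: without it Cxcl9 was called higher in both genotypes, with the same differences and a standard error of 0.14 (adjusted p = 0.0211 in cub and 0.000862 in wild type).

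The antiviral effectors of the IFIT, OAS and MX families rose without exception, 9 of 9 in each genotype, by 0.48 to 2.38 in cub and 0.48 to 2.69 in wild type. Ifit1, which binds viral RNA lacking the host cap marks, had 8.25, 8.12 and 8.67 at 24 h in cub, against 5.84, 6.33 and 5.74 at 0 h (difference 2.38 ± 0.31, adjusted p = 1.19e-06). In wild type Ifit1 had 8.66, 8.21 and 7.88 at 24 h, against 5.63, 5.76 and 5.28 at 0 h (2.69 ± 0.31, adjusted p = 2.68e-07). The groups did not overlap in either genotype. Among the oligoadenylate synthetases, which make the activator of RNase L, Oas2 rose by 1.74 ± 0.13 in cub (adjusted p = 2.6e-10) and 1.77 ± 0.13 in wild type (adjusted p = 3.07e-10). Oasl2, a related protein, rose by 1.70 ± 0.23 in cub and 2.26 ± 0.23 in wild type (adjusted p = 1.83e-06 and 4.42e-08). Mx1, a GTPase that is not functional in most inbred laboratory strains, was higher by 1.69 ± 0.11 in cub and 1.58 ± 0.11 in wild type at the RNA level.

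Of the other effectors and the genes of the ISG15 pathway, 6 of 7 rose in cub and 7 of 7 in wild type. Rtp4, an interferon-induced chaperone of membrane receptors, was at 8.65, 8.79 and 9.13 at 24 h in cub, against 6.38, 6.87 and 6.2 at 0 h (2.37 ± 0.21, adjusted p = 5.59e-09). In wild type it was at 9.11, 8.67 and 8.43 at 24 h, against 5.77, 5.89 and 5.64 at 0 h, a difference of 2.97 ± 0.21 (adjusted p = 2.78e-10). This was the largest change among these genes in wild type. Rsad2, or viperin, which makes a chain-terminating nucleotide, was at 8.18, 8.15 and 9.09 at 24 h in cub, against 5.65, 6.57 and 5.79 at 0 h (2.47 ± 0.25, adjusted p = 2.51e-08). In wild type Rsad2 was at 8.31, 8.33 and 7.68, against 5.37, 5.85 and 5.28 at 0 h (2.61 ± 0.25, adjusted p = 1.59e-08). Its genomic neighbour Cmpk2, a nucleotide kinase, rose less, by 0.81 ± 0.14 in cub and 0.97 ± 0.14 in wild type. Bst2, or tetherin, which holds budding viruses at the cell surface, was the gene of this group that did not pass in cub, at 0.08 ± 0.12 (adjusted p = 0.65), while it rose by 0.53 ± 0.12 in wild type (adjusted p = 0.000873).

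All 4 transcription factors rose in both genotypes. Irf7, which drives the interferon alpha genes, was at 8.55, 8.5 and 8.93 at 24 h in cub, against 6.88, 7.21 and 6.81 at 0 h, a difference of 1.69 ± 0.19. In wild type it was at 8.74, 8.53 and 8.17, against 6.65, 6.71 and 6.39 at 0 h, a difference of 1.90 ± 0.19. Irf9 and Stat2, subunits of the complex that binds ISREs, rose by 0.40 ± 0.09 and 0.53 ± 0.11 in cub and by 0.73 ± 0.09 and 0.78 ± 0.11 in wild type. Of the 6 nucleic acid sensors and their regulators, 5 rose in cub and 6 in wild type. Dhx58, or LGP2, an RNA helicase, rose by 1.71 ± 0.11 in cub and 1.81 ± 0.11 in wild type, and Zbp1, a sensor of Z-form nucleic acids, by 1.34 ± 0.11 and 1.63 ± 0.11. The RNA sensors Ddx58 (RIG-I) and Ifih1 (MDA5) differed by less, 0.32 ± 0.08 and 0.21 ± 0.09 in cub and 0.61 ± 0.08 and 0.51 ± 0.09 in wild type, and Ifih1 in cub did not pass (adjusted p = 0.0733).

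Parp9 and Dtx3l, partners in a ubiquitin ligase, and the ADP-ribosyltransferase Parp14 rose in both genotypes, 3 of 3, by 0.45 to 0.84 in cub and 0.74 to 0.97 in wild type. The guanylate-binding and immunity-related GTPases, known as strong targets of interferon gamma, were called in part: 1 of 3 rose in cub and 2 of 3 in wild type. Irgm1, a regulator of the other GTPases of its family, was at 8.02, 8.01 and 8.21 at 24 h in cub, against 7.27, 7.45 and 7.15 at 0 h (0.79 ± 0.18), and at 8.5, 8.16 and 7.77 in wild type, against 7.01, 6.99 and 6.99 at 0 h (1.15 ± 0.18). Iigp1 passed in neither genotype, at -0.06 ± 0.36 in cub and 0.64 ± 0.36 in wild type (adjusted p = 0.921 and 0.17); without replicate 3 of wild type at 2 h it was called higher in wild type (0.64 ± 0.14, adjusted p = 0.000625) and not in cub (adjusted p = 0.781). Gbp3 differed by 0.36 ± 0.21 in cub, which did not pass (adjusted p = 0.18), and rose by 0.75 ± 0.21 in wild type (adjusted p = 0.00481). The standard errors of Iigp1, Cxcl9 and Gbp3 were among the largest here and include the spread of the wild-type 2 h arrays. Without replicate 3 of that group, 32 genes rose in cub, with Ifih1, Gbp3 and Cxcl9 added, where 45.9% of all genes were called. In wild type 34 then rose, with Iigp1 and Cxcl9 added, where 42.6% of all genes were called. These added calls follow from leaving out an array picked for its values in these same genes.

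**Figure D2:**
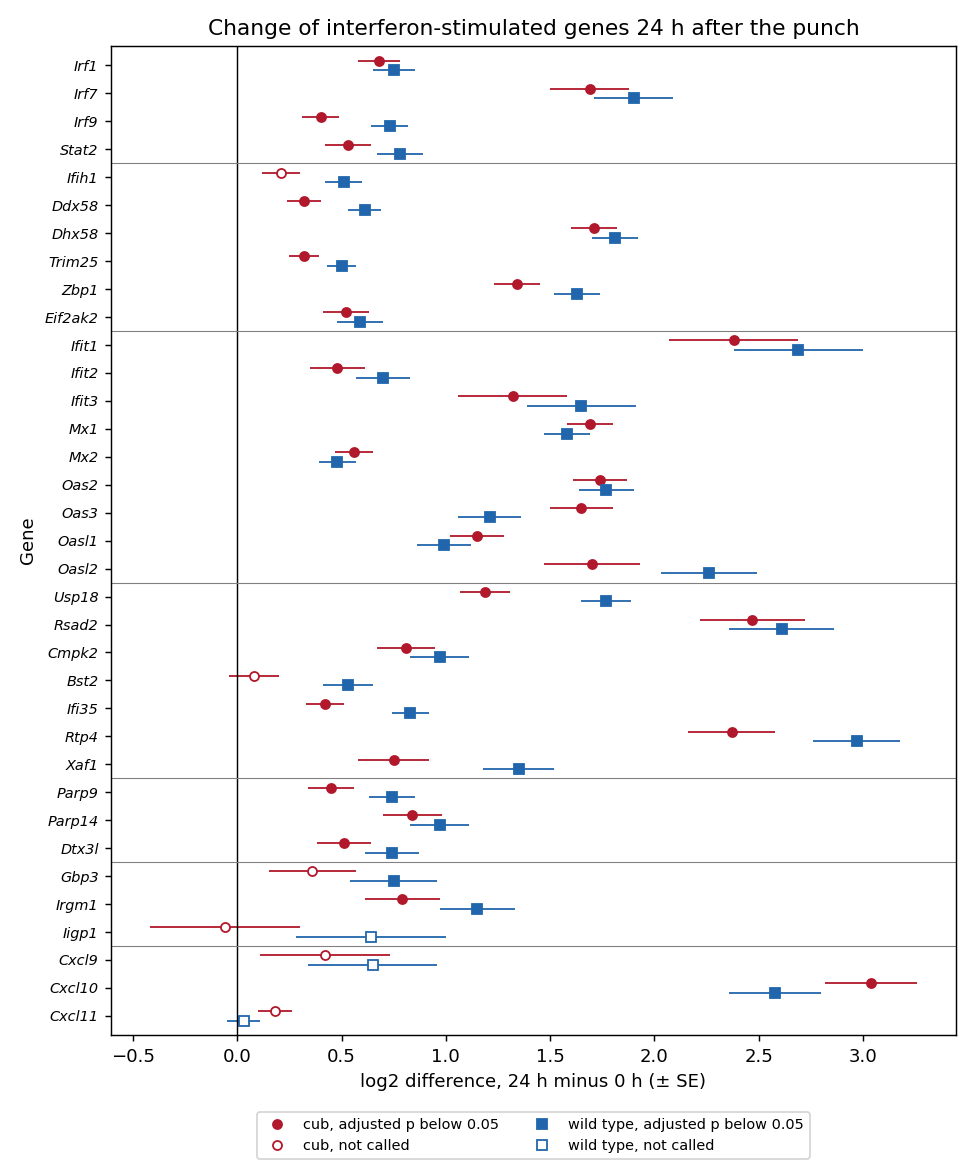
Log2 difference of the 35 genes between 24 h and 0 h (x axis), with cub as circles and wild type as squares, standard errors as bars, and open symbols where the adjusted p was 0.05 or more. Genes are grouped by role from transcription factors at the top to CXCR3 chemokines at the bottom; 29 cub and 32 wild-type symbols are filled, all to the right of 0.

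Leucocyte markers moved with these genes at 24 h. All 10 neutrophil markers rose in each genotype, and their mean level by array was 9.84 to 10.32 in cub at 24 h, against 5.38 to 5.58 at 0 h, and 9.4 to 9.74 in wild type, against 5.41 to 5.57. Of 9 monocyte and macrophage markers, 7 rose and 1 fell in cub and 7 rose in wild type, with mean levels of 9.57 to 9.93 in cub, against 8.15 to 8.65 at 0 h, and 9.2 to 9.55 in wild type, against 7.95 to 8.11. Markers of T and NK cells did not move together: 3 of 11 rose and 4 fell in cub, and 2 rose and 4 fell in wild type. Of 5 genes listed as markers of plasmacytoid dendritic cells, known producers of type I interferon, 1 rose and 2 fell in cub and 3 fell in wild type. These genes need not follow those cells in this tissue. Ly6d stood at 12.14, 12.09 and 12.09 in cub at 0 h, not far below Krt14, whereas Siglech stood at 5.97, 5.96 and 5.9. The counts therefore do not show how plasmacytoid dendritic cells moved. The part of these cells in the change of the interferon-stimulated genes was not tested.

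Among the genes upstream of this response, the measured values of the interferons were nearly flat except for Ifnk. Of 19 interferon genes listed, 15 were tested. Ifnk, interferon kappa, a type I interferon made by keratinocytes, was at 8.06 ± 0.24 at 24 h in cub, against 4.34 ± 0.06 at 0 h (SD, n = 3 each), a difference of 3.72 ± 0.14 (SE, adjusted p = 1.19e-14). In wild type it was at 7.70 ± 0.33, against 4.54 ± 0.20 at 0 h, a difference of 3.15 ± 0.14 (adjusted p = 2.35e-13). At 15 min and 2 h its group means were 4.61 and 4.41 in cub and 4.48 and 4.64 in wild type, so the rise was seen at 24 h alone among the times sampled. The other 14 interferon genes differed between 24 h and 0 h by at most 0.31 in cub and 0.33 in wild type. Apart from Ifnz, Ifna5 and Ifnl2, they stayed near or under the level of 6 in every array. A flat value that low may mean that the RNA was not detected, so it does not show that the RNA was unchanged. Of the 14, Ifna13 was called higher in cub (0.15 ± 0.06, adjusted p = 0.0473), at only 3.77, 3.77 and 3.92 at 24 h. Ifnz was called lower in wild type (-0.33 ± 0.10, adjusted p = 0.00969). Ifnb1 stood at 4.93 ± 0.10 in cub and 4.95 ± 0.01 in wild type at 24 h, and Ifng at 5.57 ± 0.08 and 5.64 ± 0.05 (SD, n = 3 each).

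Counts for the signalling genes around these interferons are read against the 46.0% of all genes called at 24 h in cub and 42.8% in wild type. Of 9 receptor and JAK-STAT genes, 4 rose and 2 fell in cub, and 5 rose and 2 fell in wild type. Jak2 rose by 1.08 ± 0.07 in cub and 0.61 ± 0.07 in wild type, Ifnar2, a chain of the type I receptor, by 0.85 ± 0.07 and 0.79 ± 0.07, and Ifnlr1, a chain of the interferon lambda receptor, fell by 0.56 and 0.47. Of 13 sensing and induction genes, 8 rose and 3 fell in cub, and 8 rose and 2 fell in wild type. Sting1, the adaptor of cytosolic DNA sensing, rose by 2.13 ± 0.11 in cub and 2.07 ± 0.11 in wild type, and Myd88, the adaptor of most Toll-like receptors, by 1.60 ± 0.06 in cub and 1.31 ± 0.06. Of 5 feedback inhibitors, 3 rose and 1 fell in cub and 2 rose and 1 fell in wild type; the largest change was in Socs3, an inhibitor of JAK kinases that answers many cytokines, at 2.56 ± 0.14 in cub and 2.10 ± 0.14 in wild type. Of 39 further interferon-stimulated genes outside the list of 41, 19 rose and 5 fell in cub, and 27 rose and 0 fell in wild type. Trim30a rose by 2.26 ± 0.13 in cub and 2.50 ± 0.13 in wild type, and Ifitm1, which blocks virus entry, by 2.47 ± 0.16 and 2.48 ± 0.16.

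At 2 h fewer interferon-stimulated genes had changed, and Irf1 was the clearest. Irf1, a transcription factor induced by interferon gamma, stood at 8.73, 8.47 and 8.53 at 2 h in cub, against 7.48, 7.51 and 7.57 at 0 h, a difference of 1.06 ± 0.10 (adjusted p = 1.35e-07). In wild type it was at 8.52, 8.52 and 8.92, against 7.29, 7.16 and 7.4 at 0 h, a difference of 1.37 ± 0.10 (adjusted p = 3.11e-09). Every 2 h array lay above every 0 h array in both genotypes. A second Irf1 row was nearly flat over the arrays, at 5.46 to 5.97, and with the mean of both rows the differences were 0.57 in cub and 0.73 in wild type and still passed.

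In cub, 4 of the 35 genes were called at 2 h, 2 higher and 2 lower, where 11.9% of all genes were called, 7.66% higher and 4.28% lower. Besides Irf1, Cxcl10 rose, with 6.68, 6.25 and 6.4 at 2 h in cub, against 5.49, 5.32 and 5.69 at 0 h (0.94 ± 0.22, adjusted p = 0.00552). Ifih1 fell, with 8.16, 7.95 and 8.14 at 2 h, against 8.46, 8.6 and 8.45 at 0 h (-0.42 ± 0.09, adjusted p = 0.00474). Ddx58 fell too, with 8.32, 8.14 and 8.33 at 2 h, against 8.59, 8.63 and 8.6 at 0 h (-0.34 ± 0.08, adjusted p = 0.00811), and missed the threshold without cub 2 h replicate 2 (adjusted p = 0.0526). In all 4 genes the 2 h and 0 h arrays did not overlap. Of the 35 genes, 3 had all 2 h arrays above all 0 h arrays and 10 had them below, with the share of all genes not counted. The median difference of the 35 genes was -0.09, and 24 of them were negative.

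In wild type, 8 genes rose at 2 h and 0 fell, where 7.97% of all genes were called, 3.98% higher and 4.00% lower. Besides Irf1 they were Cxcl9 (1.45 ± 0.31, adjusted p = 0.00488), Ifit1 (1.04 ± 0.31, adjusted p = 0.0395), Irgm1 (0.98 ± 0.18, adjusted p = 0.00133), Cxcl10 (0.96 ± 0.22, adjusted p = 0.00742), Rtp4 (0.73 ± 0.21), Irf7 (0.70 ± 0.19) and Usp18 (0.46 ± 0.12). Without replicate 3 of the 2 h group the count was 3, where 5.42% of all genes were called, with replicate 2 left out instead it was 12, and it was 5 without replicate 1 of the 2 h group or replicate 1 or 3 of the 0 h group. The shares of all genes in the fits that gave 12 and 5 are not given here. Those that passed without replicate 3 were Irf1 at 1.24 ± 0.09, Cxcl9 at 0.82 ± 0.16 and Irgm1 at 0.67 ± 0.14 (adjusted p = 9.77e-09, 0.0034 and 0.00464). Ifit1 then had an adjusted p of 0.252 and Cxcl10 of 0.0577. Cxcl10 stood at 6.06 and 6.32 in the other 2 h arrays and 6.87 in replicate 3, against 5.3 to 5.59 at 0 h. Cxcl9 was also higher in cub at 2 h once that array was left out (0.46 ± 0.14, adjusted p = 0.0425), and Xaf1, a promoter of cell death, was then lower in cub (-0.51 ± 0.14, adjusted p = 0.0181). Neutrophil markers rose at 2 h as well, 9 of 10 in each genotype, with mean levels of 6.96 to 7.3 in cub and 6.16 to 6.7 in wild type, and their part was not tested.

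**Figure D3:**
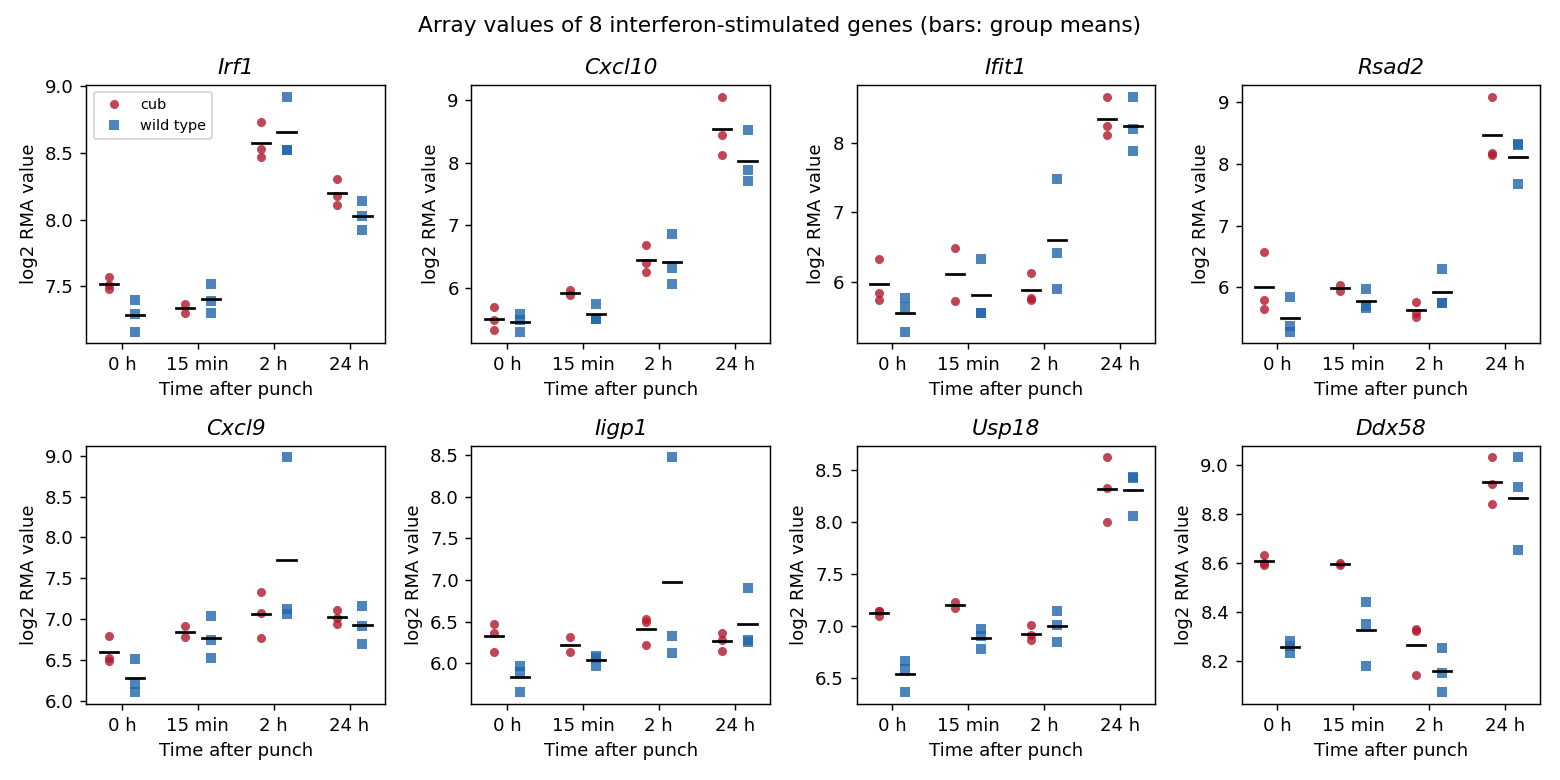
Log2 RMA value of 8 interferon-stimulated genes in every array (y axis) at 0 h, 15 min, 2 h and 24 h (x axis), with cub as circles, wild type as squares and bars at the group means. Irf1 is highest at 2 h in both genotypes, Cxcl10, Ifit1 and Rsad2 are highest at 24 h, and the single high wild-type 2 h array is seen in Cxcl9 at 8.98 and in Iigp1 at 8.47.

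Group means were not highest at the same time in all genes. For 32 of the 35 the group mean was highest at 24 h in both genotypes, and for Irf1, Iigp1 and Cxcl9 it was highest at 2 h in both. For Iigp1 in wild type this rested on replicate 3 of the 2 h group: without it the 24 h mean was the higher, by 0.25 ± 0.15 (adjusted p = 0.218). In cub the Iigp1 means lay close together, at 6.42 at 2 h, 6.32 at 0 h and 6.26 at 24 h, and the arrays overlapped. Cxcl11 in wild type was nearly flat, with group means of 4.9 to 4.99. The comparison of 24 h with 2 h was added after the data were seen. In cub 30 genes were called, 29 higher at 24 h and 1 lower, where 42.2% of all genes were called, 18.8% higher and 23.4% lower, and in wild type 31, 29 higher and 2 lower, where 41.5% were called, 21.1% higher and 20.4% lower. Without replicate 3 of wild type at 2 h there were 32 in each genotype, 31 higher and 1 lower, where 42.0% and 39.0% of all genes were called. Irf1 fell in both: 8.11, 8.18 and 8.3 at 24 h in cub, against 8.73, 8.47 and 8.53 at 2 h (-0.38 ± 0.10, adjusted p = 0.00277), and 8.14, 7.92 and 8.03 in wild type, against 8.52, 8.52 and 8.92 (-0.62 ± 0.10, adjusted p = 1.68e-05). Irf1 was nevertheless higher at 24 h than at 0 h, by 0.68 ± 0.10 in cub and 0.75 ± 0.10 in wild type. Cxcl9 fell in wild type by 0.80 (SE 0.31, adjusted p = 0.0451), which rested on replicate 3 of the 2 h group; without it the difference was -0.17 ± 0.16 (adjusted p = 0.467). In cub Cxcl9 stood at 6.94, 7.11 and 7.01 at 24 h, against 7.33, 6.77 and 7.08 at 2 h, and these arrays overlapped. At 15 min, 0 of the 35 genes were called against 0 h in either genotype by limma. Of all genes, 0.0251% were called in cub (0.0201% higher, 0.00502% lower) and 0.0351% in wild type, all higher. At an unadjusted p under 0.05 there were 0 in cub and 1, higher, in wild type, with the share of all genes at that threshold not counted.

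**Figure D4:**
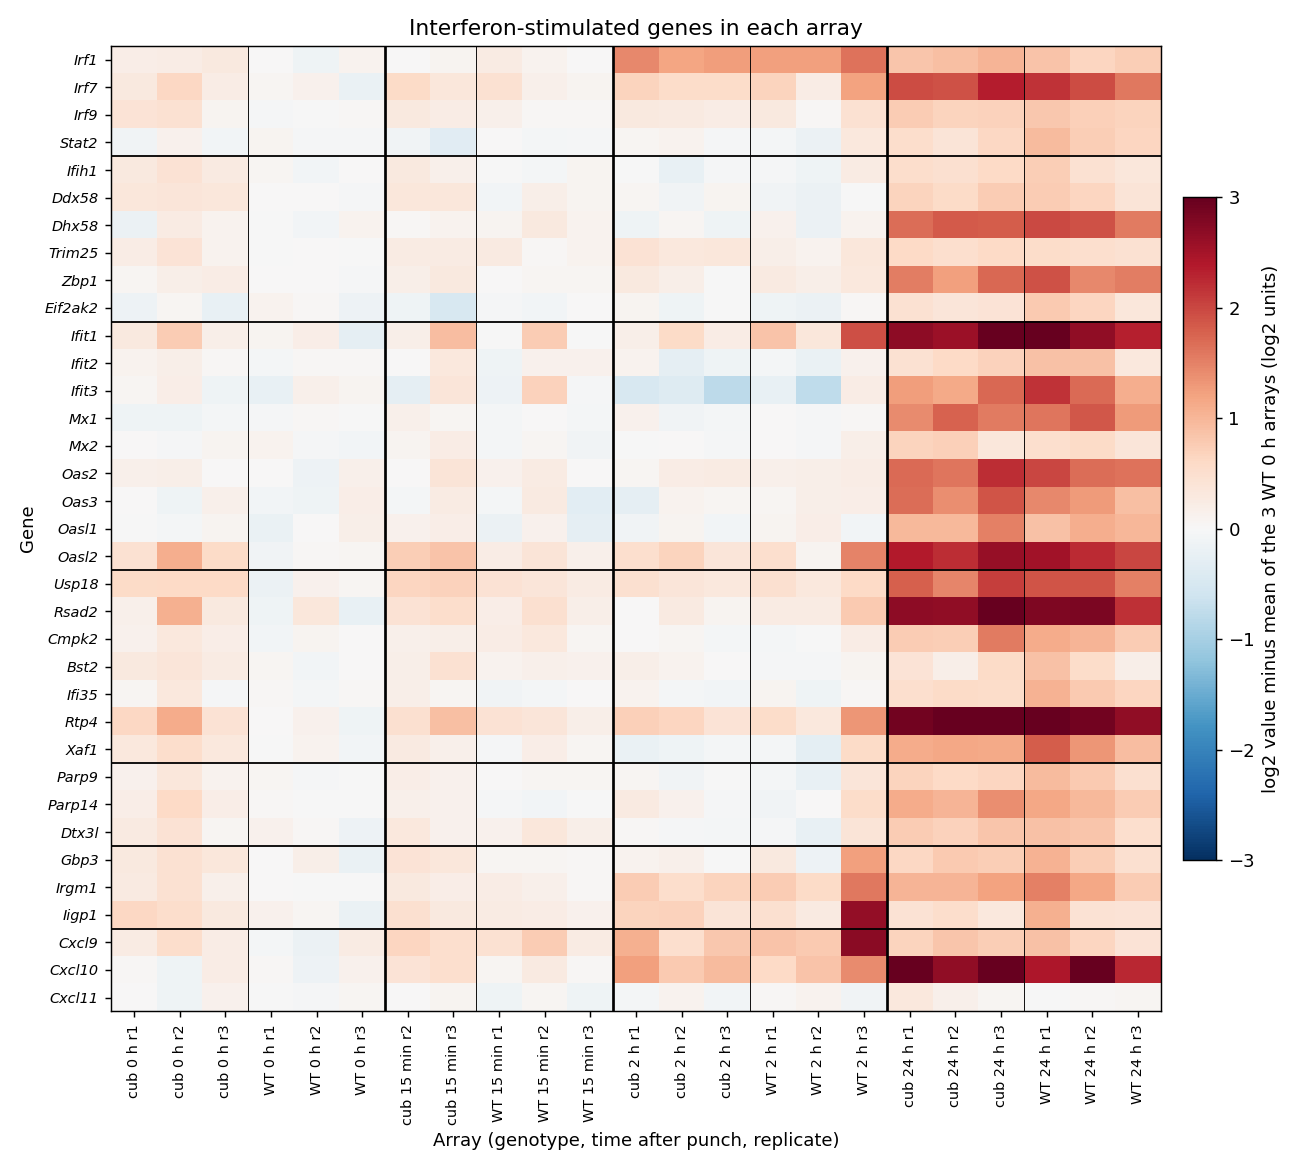
Log2 value of the 35 genes (rows, grouped by role) in each of the 23 arrays (columns, by time and then genotype, cub left of wild type, WT), minus the mean of the 3 wild-type 0 h arrays; the colour scale ends at a difference of 3 in either direction. The 24 h columns are red in most rows, Irf1 is red at 2 h as well, and the third wild-type 2 h column is redder than its neighbours in Iigp1, Cxcl9 and Ifit1.

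At 0 h, several of these genes were higher in cub than in wild type. Of the 35, 4 were called higher and 0 lower, where 5.25% of all genes were called, 3.33% higher and 1.93% lower. The difference was positive in 32 genes, with a median of 0.25 against -0.01 over all genes. The mean over the 35 genes by array was 6.75 to 6.94 in cub and 6.57 to 6.59 in wild type. Usp18, a protease that removes ISG15 and dampens the type I receptor, differed most among those called, at 7.1, 7.14 and 7.14 in cub, against 6.36, 6.66 and 6.59 in wild type (0.59 ± 0.12, adjusted p = 0.00643). Ddx58 was at 8.59, 8.63 and 8.6 in cub, against 8.26, 8.28 and 8.23 in wild type (0.35 ± 0.08, adjusted p = 0.0159). Both genes kept clear of overlap, with all cub arrays above all wild-type arrays. Ifih1 was at 8.46, 8.6 and 8.45 in cub, against 8.24, 8.1 and 8.19 in wild type (0.33 ± 0.09, adjusted p = 0.048), and Irf9 at 8.71, 8.76 and 8.38 in cub, against 8.28, 8.29 and 8.35 (0.31 ± 0.09, adjusted p = 0.0465). These calls lay near the threshold: of 13 alternatives, Usp18 passed in 13, Ddx58 in 10, and Ifih1 and Irf9 in 6 each. Only 1 gene was called without wild type 0 h replicate 2, without wild type 0 h replicate 3, or without cub 0 h replicate 2, and 2 without replicate 1 of either 0 h group. The shares of all genes in these fits are not given here.

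Larger differences with more spread did not pass at 0 h. Rtp4 was at 6.38, 6.87 and 6.2 in cub, against 5.77, 5.89 and 5.64 in wild type (0.72 ± 0.21, adjusted p = 0.0546), and Oasl2 at 6.92, 7.55 and 7.03 in cub, against 6.37, 6.5 and 6.53 (0.70 ± 0.23, adjusted p = 0.0785). Trim25, the ubiquitin ligase that activates RIG-I, was at 8.63, 8.81 and 8.51 in cub, against 8.4, 8.42 and 8.39 (0.25 ± 0.07, adjusted p = 0.0568). All cub arrays lay above all wild-type arrays in 18 of the 35 genes, these 3 among them, and below in 1. The share of all genes without overlap was not counted, so this adds nothing to the tests. Replicate 3 of wild type at 2 h enters these tests only through the shared estimate of the spread. Leaving it out added Oasl2, Rtp4, Trim25 and Iigp1, for 8 genes higher in cub, where 5.25% of all genes were called and 3.38% were higher. That array was picked for its values in these same genes, so the added calls are not separate evidence. The genes of the IFIT, OAS and MX families other than Ifit1 and Oasl2 stayed within 0.11 of 0 in either direction.

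Other genes differed between the genotypes at 0 h. Of the 39 further interferon-stimulated genes, 11 were higher in cub and 0 lower, among them Ifi205 (1.13 ± 0.27, adjusted p = 0.0163), Psmb8, an immunoproteasome subunit (0.89 ± 0.14, adjusted p = 0.000709), and Tap1, a peptide transporter of antigen presentation (0.82 ± 0.12, adjusted p = 0.000635). Of the 15 interferon genes 0 were called at 0 h by limma, and Ifnk differed by -0.21 ± 0.14 (adjusted p = 0.506). Markers of endothelium were higher in cub in 4 of 5, with mean levels by array of 8.29 to 8.58 in cub and 7.89 to 8.09 in wild type. Monocyte and macrophage markers were higher in 3 of 9, with mean levels of 8.15 to 8.65 in cub and 7.95 to 8.11 in wild type. Their part in the difference of the interferon-stimulated genes was not tested.

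**Figure D5:**
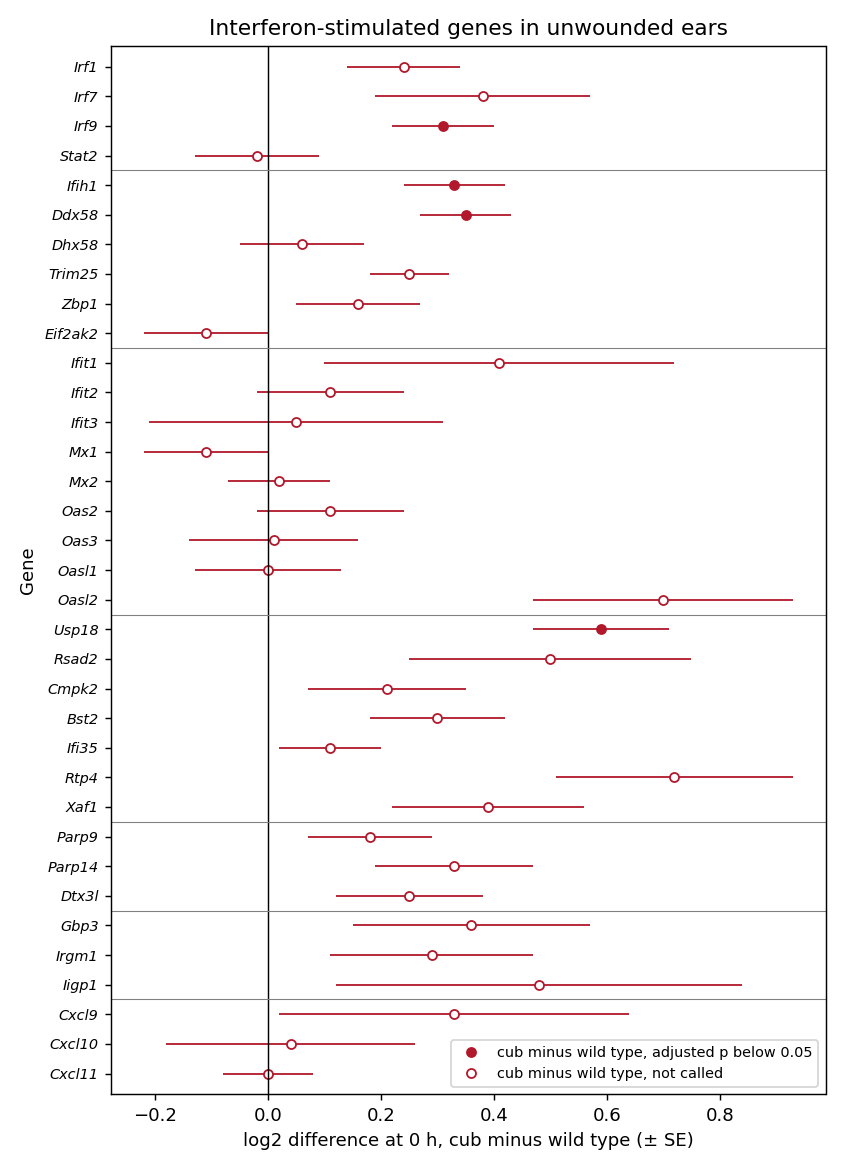
Log2 difference between cub and wild type at 0 h (x axis) for the 35 genes, with standard errors as bars; filled circles mark the 4 genes with an adjusted p below 0.05. Most circles lie to the right of 0, 32 of 35, and the widest bar is that of Iigp1.

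After the punch no gene of the 35 passed between the genotypes. By limma 0 were called at 15 min, at 2 h and at 24 h. Of all genes, 3.45% were called at 15 min (1.57% higher, 1.88% lower), 4.41% at 2 h (3.84% higher, 0.577% lower) and 5.68% at 24 h (2.24% higher, 3.44% lower). At an unadjusted p under 0.05, 3 were higher and 1 lower in cub at 15 min, 1 higher and 2 lower at 2 h, and 2 higher and 2 lower at 24 h. The share of all genes at that unadjusted threshold was not counted. Differences were positive in 29 genes at 15 min, 6 at 2 h and 20 at 24 h, with medians of 0.16, -0.07 and 0.03. Without replicate 3 of wild type at 2 h, 21 were positive at 2 h, the median was 0.03, and 1 gene was higher and 0 lower at an unadjusted p under 0.05. Usp18 stood at 7.17 and 7.23 in cub at 15 min, against 6.97, 6.9 and 6.78 in wild type, at 7.01, 6.91 and 6.86 at 2 h, against 7.01, 6.85 and 7.14, and at 8.33, 8 and 8.62 at 24 h, against 8.43, 8.42 and 8.06. Thus the genotypes were apart in Usp18 at 15 min and overlapped at 2 h and 24 h. Averaged over the 4 times, 3 genes were higher in cub, where 18.3% of all genes were called, 9.71% higher and 8.56% lower: Ddx58 (0.20 ± 0.04, adjusted p = 0.00259), Trim25 (0.14 ± 0.04, adjusted p = 0.0121) and Usp18 (0.21 ± 0.06, adjusted p = 0.0208). Without replicate 3 of wild type at 2 h there were 8, where 16.1% of all genes were called, without wild type 24 h replicate 1 there were 6, and without cub 15 min replicate 3 there were 2, with Usp18 lost (adjusted p = 0.0536). The shares of all genes in the fits that gave 6 and 2 are not given here. At 24 h the differences nearest to the threshold were those of Ifi35 at -0.29 ± 0.09 (adjusted p = 0.0693) and Oas3 at 0.45 ± 0.15 (adjusted p = 0.093).

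The change after the punch was also compared directly between the genotypes, as an interaction. At 15 min, 2 h and 24 h, 0 of the 35 genes were called by limma, where 0, 0.130% (0.105% higher, 0.0251% lower) and 1.00% (0.256% higher, 0.747% lower) of all genes were called. At an unadjusted p under 0.05 there were 1, 12 and 7, all lower in cub. The share of all genes at that unadjusted threshold was not counted, so these counts cannot be set against a background. The difference was negative in 26, 32 and 29 genes, with medians of -0.14, -0.27 and -0.23 against 0.02, 0.01 and 0 over all genes. These comparisons share the 0 h arrays of both genotypes with each other and with the comparison of the genotypes at 0 h, so they are not separate evidence. Without replicate 3 of wild type at 2 h the unadjusted counts were 4 at 2 h and 13 at 24 h, and the median at 2 h was -0.18. Usp18 had the smallest p at 24 h, with a change of 1.19 ± 0.12 in cub and 1.77 ± 0.12 in wild type and a difference of -0.58 ± 0.17 (adjusted p = 0.126). Outside the list, Psmb8 and Tap1 passed at 24 h: Tap1 changed by -0.33 ± 0.12 in cub and 0.44 ± 0.12 in wild type, with a difference of -0.77 ± 0.18 (adjusted p = 0.0377), and Psmb8 changed by 0.02 ± 0.14 in cub and 0.96 ± 0.14 in wild type, with a difference of -0.93 ± 0.19 (adjusted p = 0.0218).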

How the data were processed

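The authors deposited log2 values; the submitters' processing notes name RMA, a method of background correction, quantile normalization and summarization, and version 1.1 of Affymetrix Expression Console. The summarization level, annotation release and build of the array are not given in the sources used here. Of 35556 rows, 21789 carried 1 gene symbol in the platform annotation, 1621 several and 12146 none; only the first kind was used, with the highest-mean row for each of 999 genes that had more than 1. Groups came from the labels, which call each array a biological replicate.

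A linear model with 1 mean for each of 8 groups was fitted to all 23 arrays (limma 3.58.1, R 4.3.3), with 15 residual and 5.61 prior degrees of freedom, and 16 comparisons. Benjamini-Hochberg adjustment ran over the 19938 genes of a comparison, with a threshold of 0.05. The authors' R/maanova test was not run. In each comparison but 24 h against 2 h, up to 5 called genes in each direction have full statistics. For 24 h against 2 h, only the called genes that were lower at 24 h do. Array values are given for the genes called in the genotype average and for some of those called in at least 3 comparisons. A gene without printed array values may have been called as often. Up to 3 genes of each other list are named, and further genes were named after their values were seen. The genes and all lists were chosen with earlier results of these data known. No scan date or other batch is given in the sources used here. Of 159 genes on the other lists, 141 were tested. Motifs were matched as plain letters to RefSeq promoters.

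Alternatives were median-centring, quantile normalization of the tested genes, a minimum of 6 for a gene's highest group mean, the mean of a gene's rows, only the arrays of the groups compared, trend and robust moderation, the replicate number as a block, and each array left out in turn. In simulated data for cub against wild type at 2 h, with 19938 genes, the code found 91 of 100 genes changed by 0.5 and 97 of 100 changed by 1, with 5 false calls.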

Additional observations from a re-analysis of the deposited data

How the results depend on the processing

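Single genes were followed through the alternatives only if called and among the up to 5 largest changes in each direction of a comparison. None of them reversed direction under any alternative. The median of the 35 genes changed sign in 2 comparisons: for cub against wild type at 2 h it was -0.07, and 0.03 without wild type replicate 3, and at 24 h it was 0.03, and -0.06 without wild type replicate 3 and -0.02 without cub replicate 3. Fitting only the arrays of the groups compared gave 7 calls in place of 4 for cub against wild type at 0 h, 8 in place of 4 for cub at 2 h (3 higher, 5 lower) and 5 in place of 8 for wild type at 2 h. Among the alternatives, the share of all genes called is given only for fits without wild type 2 h replicate 3. The other counts are therefore not set against a background. The replicate number as a block gave 2 calls at 0 h and moved no other count by over 1.5 times. The labels do not say that the numbers pair the arrays. After the group means were taken off, the 77 pairs of same-numbered arrays correlated at -0.447 to 0.41 (median -0.0352), 21 of them over 0.1. Of the 23 arrays, 5 correlated best with their own number. With means of 2 or 3 arrays, such correlations cannot exclude a pairing. With each array of the groups compared left out in turn, counts of called genes ran from 1 to 5 for cub against wild type at 0 h, 0 to 1 at 15 min (1 without cub replicate 2, with the lone cub array assumed to vary like the other groups), 0 to 1 at 2 h (1 without wild type replicate 2), 0 to 1 at 24 h (1 without wild type replicate 3 or cub replicate 2) and 2 to 8 for the average over the times. For the changes after the punch they ran from 0 to 0 at 15 min in both genotypes, 3 to 4 in cub and 3 to 12 in wild type at 2 h, 29 to 30 in cub and 32 to 32 in wild type at 24 h, and 28 to 31 in cub and 30 to 32 in wild type for 24 h against 2 h. For the interaction they ran from 0 to 0 at 15 min, 0 to 0 at 2 h and 0 to 1 at 24 h (1 without replicate 3 of either 24 h group). Leaving out wild type 2 h replicate 3 also moved comparisons that do not hold it, through the shared spread, to 8 calls at 0 h, 6 for cub at 2 h, 32 for cub and 34 for wild type at 24 h, and 32 for cub at 24 h against 2 h. For cub at 2 h, 11.8% of all genes were then called. Among the single genes followed, which were those with the largest changes, each change from 0 h to 24 h passed in 13 of 13 alternatives. Ifit1 in wild type at 2 h against 0 h passed in 5 of 13, and Cxcl9 in wild type at 24 h against 2 h in 7 of 13. Rescaling moved the median of all genes by at most 0.05. With 2 or 3 arrays in a group, small differences between the genotypes may have been missed.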
